A study of Homo sapiens with 18 samples.

Results

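Smooth muscle type contractile genes were followed in 3 Ewing sarcoma cell lines after transfection with a small interfering RNA (siRNA) against FLI1. The set holds 10 genes of the 58381 rows in each count table, chosen by symbol: ACTA2, ACTG2, TPM1, TPM2, CALD1, CNN1, TAGLN, LMOD1, MYL9 and MYLK. TC-32, TC-71 and A673 are established lines of Ewing sarcoma, which arises in bone or soft tissue and is driven by a fusion of EWSR1 with an ETS gene, most often FLI1, which the series title names. Each line was transfected at 20 nM with either siNeg, a negative control siRNA, or siFLI1, 1 siRNA against FLI1, with 3 libraries per siRNA and line, 18 in all. Cells of A673 were grown in DMEM and those of the other two lines in RPMI medium, and the column names give 48 hours for TC-32 and TC-71 and no time for A673. Libraries of mRNA were made with a stranded kit and counted per gene. With 1 siRNA per target, an effect of that siRNA through other transcripts cannot be told apart from one through FLI1, and the labels do not say that replicate libraries came from separate cultures, so the p-values measure only the spread between these libraries.

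Smooth muscle contracts when myosin II slides along actin filaments, and the trigger is phosphorylation of the myosin regulatory light chain by a calcium and calmodulin dependent kinase. ACTA2 and ACTG2 are the actins of vascular and visceral smooth muscle. Tropomyosins, caldesmon, calponin, transgelin and leiomodin bind the actin filament and stabilise, bundle or restrain it, while MYL9 is the regulatory light chain and MYLK its kinase. Many of these genes are textbook targets of serum response factor (SRF) and its coactivators, myocardin and the MRTF proteins, which act through a DNA element called the CArG box. Several are also made outside smooth muscle, in myofibroblasts and other cells with stress fibres. TPM1, TPM2, CALD1 and MYLK have smooth muscle and non-muscle isoforms, which a count per gene adds together.

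Libraries held 114564479 to 120993595 counts in A673, 24102487 to 33669271 in TC-32 and 19685354 to 37234528 in TC-71. FLI1 itself, whose count also takes in reads from the FLI1 part of the fusion, was lower with siFLI1 in all 3 lines. A673 fell furthest, by a log2 fold change of -2.09 (edgeR adjusted p = 2.02e-16). TC-71 followed at -1.47 (adjusted p = 8.88e-18), and the smallest fall was that of TC-32 at -1.03 (adjusted p = 1.85e-13). Of 7 genes taken as Ewing sarcoma markers, all had counts in TC-32 and A673, and 6 in TC-71, where CD99 was listed at 0 counts in all 6 libraries. Each count table holds 2 rows for CD99, and the row for the copy on the Y chromosome was not used. Whether that bears on the 0 counts was not tested, so they do not show that TC-71 lacks CD99. Levels below are CPM, counts divided by the library total after TMM scaling within a line, and differences between siRNAs are log2 fold changes from edgeR's quasi-likelihood test, with Benjamini-Hochberg adjustment over all genes tested in that line and a threshold of 0.05. The 3 tables were counted and scaled separately, so levels set side by side across lines carry that difference as well.

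The proximal promoters of the actins and of a short MYLK transcript are printed because they hold the best matches to the CArG box. RefSeq windows (GRCh38.p14) of 250 bases before an annotated start were matched for 8 of the 10 genes, 13 windows in all; TAGLN and MYL9 had none. Sequences run 5′ to 3′ on the gene's strand, ending at the base before the start, and capitals mark the CArG box or its near match.
ACTG2 (chr2:73892758-73893007, plus strand): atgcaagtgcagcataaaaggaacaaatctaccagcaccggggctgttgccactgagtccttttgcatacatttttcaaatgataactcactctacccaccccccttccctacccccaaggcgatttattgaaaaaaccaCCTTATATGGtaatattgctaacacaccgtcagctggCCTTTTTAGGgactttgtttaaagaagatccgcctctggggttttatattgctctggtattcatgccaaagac
ACTA2, second of 2 windows (chr10:88952774-88953023, minus strand): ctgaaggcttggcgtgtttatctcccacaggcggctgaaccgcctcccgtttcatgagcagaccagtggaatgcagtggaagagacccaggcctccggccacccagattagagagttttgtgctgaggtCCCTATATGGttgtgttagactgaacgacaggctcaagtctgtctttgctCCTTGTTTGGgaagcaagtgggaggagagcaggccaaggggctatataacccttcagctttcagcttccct
MYLK (chr3:123620549-123620798, minus strand): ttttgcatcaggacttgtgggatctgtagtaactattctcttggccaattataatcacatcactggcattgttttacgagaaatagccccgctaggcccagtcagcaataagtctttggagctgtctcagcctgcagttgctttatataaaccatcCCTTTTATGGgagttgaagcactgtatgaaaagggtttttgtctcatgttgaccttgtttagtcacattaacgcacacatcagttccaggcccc
The ACTG2 window held 2 exact CArG boxes, whose first bases lay 110 and 73 bases before the start, and the MYLK window held 1, at 94 bases before. Both ACTA2 matches, at 121 and 71 bases before the start, differ from the CArG box by 1 base, a search that was added after the sequences had been seen. CALD1 had 1 such near match, 26 bases before the start of the third of its 4 windows. That start lies 68135 bases from the start of its canonical transcript and outside the span given for CALD1 below. On both strands, an exact CArG box occurred in 2 of the 13 windows and in 1.16% of 35116 RefSeq windows of this length, and a match with 1 other base in 2 of 13 and 5.96%. CATTCC, the core of the element bound by TEAD factors, occurred in 4 of 13 windows, in ACTA2, CALD1 and LMOD1, and in 11.9% of all windows. GGAA, the ETS core, which overlaps CATTCC on the opposite strand, occurred in all 13 windows and in 92.7% of all. The MYLK window lies inside the gene, 263784 bases from the start of its canonical transcript, and precedes the short transcript known for telokin, a protein that is the end piece of the kinase; counts per gene do not separate that transcript from the kinase.

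Nearly all of the contractile genes were higher with siFLI1 in every line, MYLK in TC-71 being the exception among those tested. In TC-32, 9 of the 10 genes rose, against 41.3% of all genes tested, while 40.1% of those genes fell. In TC-71, 8 rose, against a background of 36.8%, and MYLK fell, in a line where 35.0% of tested genes fell. All 10 rose in A673, where 35.6% of tested genes did and 35.4% fell. Every siFLI1 library lay above every siNeg library for 10 members in A673, 9 in TC-32 and 8 in TC-71, as it did for 36.6%, 41.8% and 37.9% of tested genes. MYL9 was at or under the floor of 3 counts in every library of TC-32 and TC-71 and was not tested there. A total of 8 genes, all but MYL9 and MYLK, rose in each of the 3 lines, as 18.9% of the 14233 genes tested in all lines did. The median log2 fold change of the tested members was 5.15 in TC-71 and 3.43 in both other lines, beside -0.0066 in A673, 0.018 in TC-71 and 0.022 in TC-32 over all tested genes. Some members passed the filter on low counts only through their siFLI1 libraries, so a difference was built into their being tested: ACTG2 and CNN1 in TC-32, ACTG2, CNN1 and LMOD1 in TC-71, and LMOD1 in A673. Without them, 7 of 7 rose in TC-32, 5 rose and 1 fell of 6 in TC-71 and 9 of 9 rose in A673, and the medians were 2.63, 3.85 and 2.98. Summed over the 10 genes, A673 went from 508 ± 8.90 CPM with siNeg to 3483 ± 102 with siFLI1, TC-32 from 764 ± 10.5 to 2914 ± 12.6 and TC-71 from 263 ± 9.92 to 1689 ± 59.8 (mean ± SD, n = 3 libraries). In bulk RNA, more cells that express a gene and more RNA per cell cannot be told apart.

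**Figure D1:**
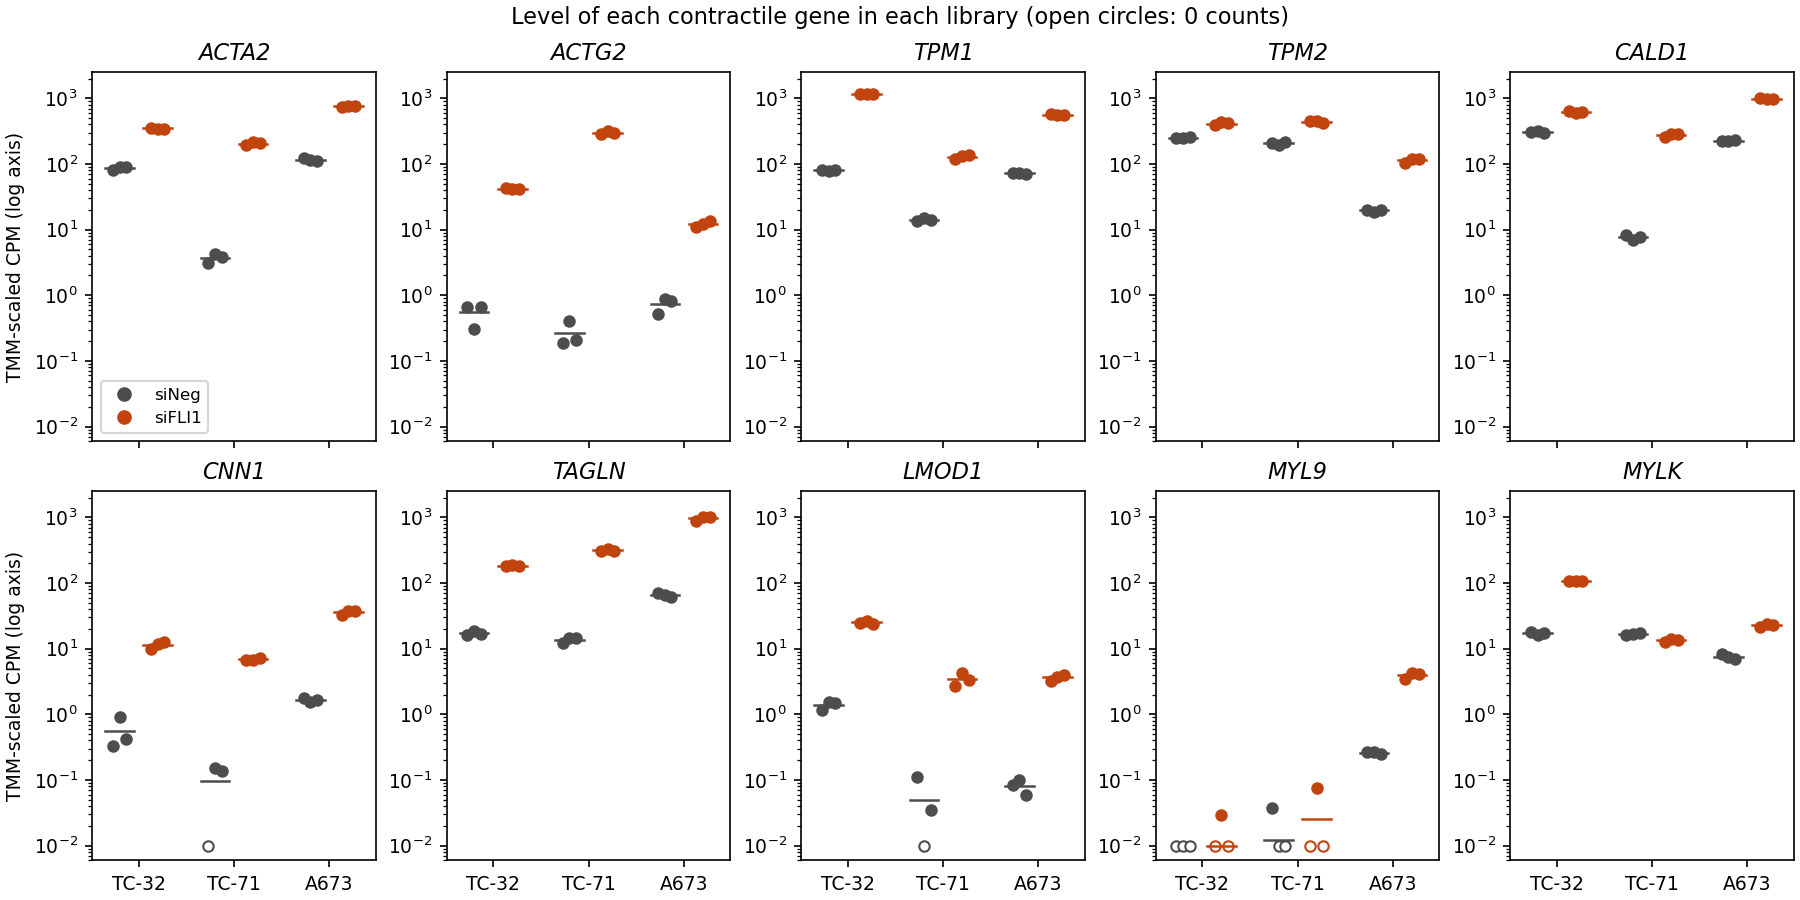
Level of each of the 10 genes in each of the 18 libraries, in TMM-scaled CPM on a log axis; points are libraries, horizontal lines are group means, and open circles at the bottom are libraries with 0 counts. Each panel shows siNeg in grey and siFLI1 in orange for TC-32, TC-71 and A673; orange lies above grey throughout except for MYLK in TC-71 and MYL9 in TC-32 and TC-71.

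Both smooth muscle actins rose in all 3 lines. ACTA2 (ENSG00000107796.13, chr10:88935074-88991339, minus strand) encodes the actin of vascular smooth muscle and myofibroblasts. In TC-71 its level was 3.12, 4.26 and 3.85 CPM in the siNeg libraries and 194, 213 and 207 CPM in the siFLI1 libraries. TC-32 libraries held 81.4, 90.9 and 88.5 CPM with siNeg and 355, 347 and 343 CPM with siFLI1. Those of A673 held 121, 113 and 110.3 CPM with siNeg and 728, 767 and 778 CPM with siFLI1. In no line did the siRNA groups overlap, and TC-71 with siNeg was the lowest of the 6 groups by a wide margin. The log2 fold change of ACTA2 was 5.79 (SE 0.0762, adjusted p = 4.07e-31) in TC-71, 2.72 (SE 0.0434, adjusted p = 1.26e-17) in A673 and 2.00 (SE 0.0468, adjusted p = 5.58e-22) in TC-32. On the opposite strand, 36.0% of its exon bases are shared with ACTA2-AS1 and FAS, and whether the counting used strand is not given in the sources used here; ACTA2-AS1 stood at 0.246 to 1.98 CPM over the 6 group means. FAS stood at 2.09 CPM with siNeg and 5.11 with siFLI1 in TC-71, 8.84 and 11.9 in TC-32, and 39.2 and 30.7 in A673; the mean of ACTA2 with siNeg in TC-71 was 3.74 CPM.

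ACTG2 (ENSG00000163017.13, chr2:73892314-73919865, plus strand), the enteric smooth muscle actin, was low with siNeg and rose in every line. TC-71 libraries held 0.186, 0.406 and 0.208 CPM with siNeg and 288, 315 and 298 CPM with siFLI1, a log2 fold change of 10.19 (SE 0.105, adjusted p = 9.10e-34). Levels in TC-32 were 0.670, 0.302 and 0.673 CPM with siNeg and 42.9, 41.6 and 41.4 CPM with siFLI1, a log2 fold change of 6.27 (SE 0.134, adjusted p = 8.98e-23). In A673 they were 0.524, 0.869 and 0.809 and 11.1, 12.2 and 13.3 CPM, which is a log2 fold change of 4.05 (SE 0.127, adjusted p = 5.62e-14). With siNeg, TC-32 overlapped both other lines and TC-71 lay below A673, whereas the siFLI1 groups did not overlap: TC-71 was highest, TC-32 next and A673 lowest. Per kilobase of exon, ACTG2 in TC-71 went from rank 16380 to rank 320 among 16957 tested genes with a known length. Of its 1452 stretches of 50 bases, 2 occurred in other annotated genes, none of them in ACTA2, and the stretches of ACTA2 found elsewhere all lay in ACTA2-AS1.

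Tropomyosins lie along the actin filament and govern its access to myosin and other proteins. TPM1 (ENSG00000140416.20, chr15:63042620-63071915, plus strand) rose by a log2 fold change of 3.87 (SE 0.0417, adjusted p = 3.61e-28) in TC-32, where the libraries ranged over 78.4 to 81.4 CPM with siNeg and 1162 to 1178 CPM with siFLI1. In TC-71 the range went from 13.6 to 15.1 to 118 to 135 CPM, which is a log2 fold change of 3.19 (SE 0.0646, adjusted p = 1.60e-26). A673 went from 70.6 to 72.4 to 559 to 573 CPM, which is a log2 fold change of 2.98 (SE 0.0356, adjusted p = 6.13e-19). TPM1 with siFLI1 was highest in TC-32 and lowest in TC-71, and the siRNA groups overlapped in no line. TPM2 (ENSG00000198467.14, chr9:35681992-35690056, minus strand), beta-tropomyosin, was already abundant with siNeg in TC-32 (248.08 to 262 CPM) and TC-71 (194 to 213 CPM) and low in A673 (18.7 to 20.2 CPM). With siFLI1 it ranged over 387 to 436, 427 to 454 and 105 to 121 CPM in the same order of lines. Its log2 fold changes were 0.70 (SE 0.0446, adjusted p = 3.06e-13), 1.10 (SE 0.0445, adjusted p = 2.64e-19) and 2.55 (SE 0.0560, adjusted p = 6.17e-16), and in TC-32 it was the smallest rise of any member. With siFLI1, TC-32 and TC-71 overlapped in TPM2, whereas A673 stayed below both, and below their siNeg libraries.

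CALD1 (ENSG00000122786.19, chr7:134744252-134970729, plus strand) encodes caldesmon, which binds actin, tropomyosin and calmodulin and restrains myosin's ATPase. With siNeg, TC-71 held 8.36, 7.0 and 7.70 CPM, far below 303, 317 and 299.5 CPM in TC-32 and 222, 226 and 229.02 CPM in A673. With siFLI1, TC-71 reached 254, 288 and 284 CPM, TC-32 635, 596 and 613 CPM and A673 1012, 969.9 and 994 CPM. All 3 lines rose without overlap between siRNAs, yet CALD1 in TC-71 with siFLI1 stayed below every siNeg library of TC-32. The log2 fold change was 5.15 (SE 0.0684, adjusted p = 1.89e-30) in TC-71, 2.14 (SE 0.0345, adjusted p = 1.46e-17) in A673 and 1.00 (SE 0.0400, adjusted p = 2.55e-17) in TC-32.

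CNN1, TAGLN and LMOD1, which are widely used as markers of smooth muscle differentiation, rose in all 3 lines from very different starting levels. CNN1 (ENSG00000130176.7, chr19:11538767-11550323, plus strand) encodes calponin 1, an actin-binding inhibitor of myosin's ATPase. Its level went from 0.335, 0.905 and 0.421 to 10.0, 11.9 and 12.5 CPM in TC-32 and from 1.80, 1.57 and 1.67 to 32.5, 37.3 and 37.6 CPM in A673, log2 fold changes of 4.34 (SE 0.201, adjusted p = 3.08e-15) and 4.41 (SE 0.0781, adjusted p = 4.42e-17). In TC-71 the counts were 0, 3 and 4 with siNeg and 163, 176 and 270 with siFLI1, a ratio of depth-scaled sums of 74.9 with a 95% interval of 36.1 to 187 that covers counting error only. CNN1 groups did not overlap in any line (TC-71 adjusted p = 1.22e-17), but with so few siNeg counts the size of the TC-71 change is loosely set.

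TAGLN (ENSG00000149591.16, chr11:117199370-117207464, plus strand) encodes transgelin, also called SM22, which cross-links actin. Libraries of A673 held 62.0 to 71.4 CPM with siNeg and 877 to 1028 with siFLI1, those of TC-71 12.03 to 14.6 and 306 to 325, and those of TC-32 16.1 to 18.7 and 181 to 192. Log2 fold changes were 3.88 (SE 0.0698, adjusted p = 1.85e-14), 4.52 (SE 0.0612, adjusted p = 7.17e-31) and 3.43 (SE 0.0597, adjusted p = 2.26e-24) in that order, and no siRNA groups overlapped. TAGLN counts are uncertain in share: 38.1% of its exon bases are shared with a gene on the same strand, AP000892.6 (ENSG00000280143), and 34.1% with PCSK7 on the opposite strand. The level of AP000892.6 went from 3.09 to 59.4 CPM in A673, 0.562 to 19.6 in TC-71 and 0.488 to 8.0 in TC-32, and how the counting divided shared reads is not given in the sources used here. PCSK7 stood at 42.6 CPM with siNeg and 50.5 with siFLI1 in TC-32, 54.2 and 79.3 in TC-71, and 67.3 and 90.4 in A673, above TAGLN with siNeg in TC-32 and TC-71 and near it in A673. Its part in the TAGLN values was not tested. LMOD1 (ENSG00000163431.12, chr1:201896456-201946548, minus strand), leiomodin 1, starts actin filaments. It rose from 1.17, 1.55 and 1.47 to 24.9, 26.6 and 24.0 CPM in TC-32, a log2 fold change of 4.16 (SE 0.118, adjusted p = 2.56e-20). A673 went from 0.0832, 0.0984 and 0.0590 to 3.21, 3.74 and 4.01 CPM, 5.49 on the log2 scale (SE 0.183, adjusted p = 1.24e-13). In TC-71 LMOD1 had 3, 0 and 1 counts with siNeg and 65, 110 and 126 with siFLI1, a ratio of depth-scaled sums of 64.8 (95% counting interval 25.0 to 239, adjusted p = 1.04e-13). With siFLI1, LMOD1 in A673 and TC-71 overlapped, and TC-32 stood above both.

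The myosin side of the apparatus did not follow the thin filament genes in every line. MYL9 (ENSG00000101335.9, chr20:36541497-36551447, plus strand), the smooth muscle regulatory light chain, had 0, 0 and 0 counts with siNeg and 0, 1 and 0 with siFLI1 in TC-32, and 1, 0 and 0 and 0, 2 and 0 in TC-71. At these depths 3 counts correspond to 0.0891 to 0.124 CPM in TC-32 and 0.0806 to 0.152 CPM in TC-71, so a rise below that level was not detectable and no fold change was computed. A673 had 32, 33 and 29 counts with siNeg and 397, 504 and 476 with siFLI1, that is 0.260 ± 0.0139 and 3.96 ± 0.493 CPM (mean ± SD, n = 3), a log2 fold change of 3.92 (SE 0.145, adjusted p = 4.81e-13). No 50-base stretch of its 2786-base canonical transcript occurred in another annotated gene.

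MYLK (ENSG00000065534.18, chr3:123610049-123884332, minus strand), the myosin light chain kinase, was the only member to change in opposite directions between lines. In TC-71 it was lower with siFLI1: 16.0, 16.8 and 17.5 CPM with siNeg and 12.5, 14.0 and 13.8 CPM with siFLI1, a log2 fold change of -0.32 (SE 0.0826, adjusted p = 0.00106). Every TC-71 siFLI1 library lay below every siNeg library, though the change was the smallest in size of all those called. TC-32 rose from 18.3, 16.3 and 17.4 to 107, 107 and 107 CPM, which is a log2 fold change of 2.63 (SE 0.0592, adjusted p = 2.65e-22). A673 rose from 8.30, 7.56 and 6.96 to 21.5, 23.9 and 22.6 CPM, which is a log2 fold change of 1.58 (SE 0.0659, adjusted p = 2.44e-12). With siNeg, MYLK in TC-32 and TC-71 overlapped, so the same starting level was followed by a rise in the first and a fall in the second. The difference between those effects, TC-32 minus TC-71, was 2.94 (SE 0.102, adjusted p = 1.52e-22).

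**Figure D2:**
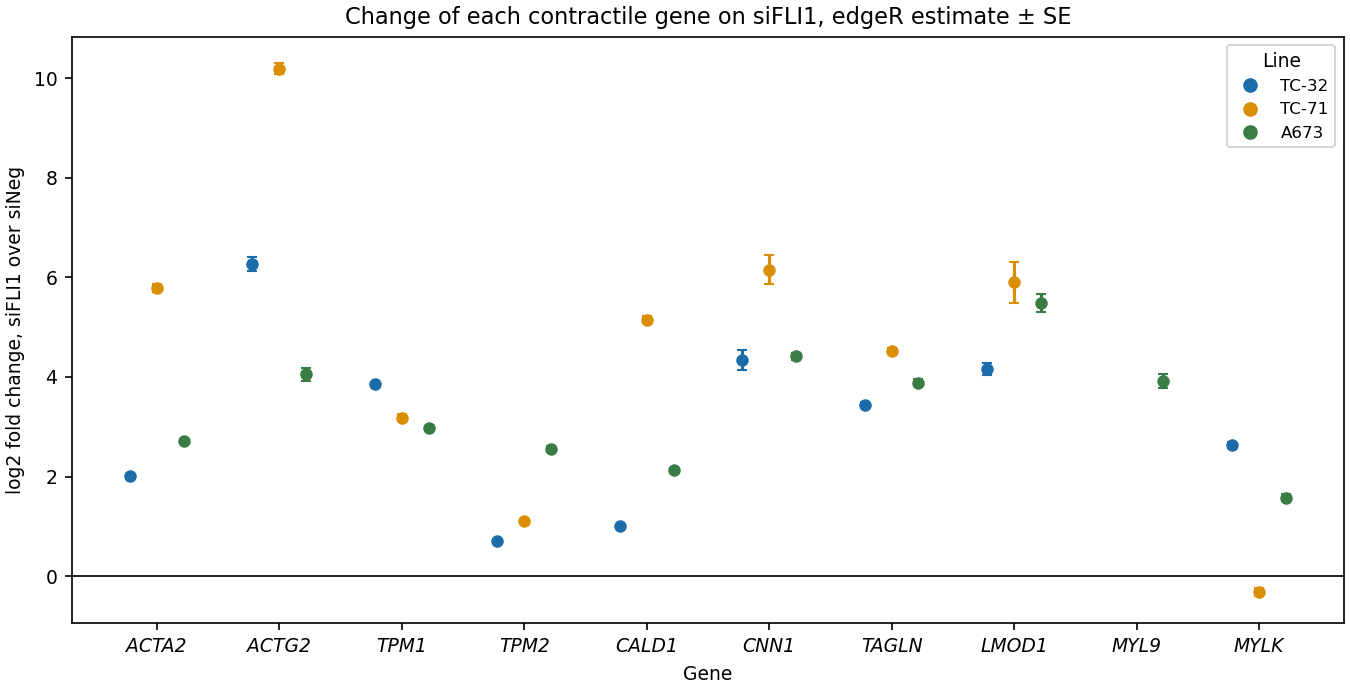
Log2 fold change of each gene, siFLI1 over siNeg, in TC-32, TC-71 and A673; points are edgeR estimates, bars are ± 1 SE, and the line at 0 marks no change. MYLK in TC-71 is the only point below 0, the actins and CALD1 spread widely between lines, and MYL9 has a point for A673 alone.

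The size of the rise differed between lines. In these effects, line cannot be told apart from medium, stated time, count table, depth and the size of the FLI1 fall, where those differ. In a model over all 18 libraries, the siFLI1 effect differed between TC-32 and A673 for 8 of the 10 genes (62.1% of all 19610 tested genes differed), between TC-32 and TC-71 for 9 (53.6%) and between A673 and TC-71 for 8 (51.6%). A difference between lines was thus common among all genes. TC-71 had the larger effect for 7 of the 9 genes that differed from TC-32 and for 6 of the 8 that differed from A673. ACTG2, CNN1 and LMOD1 are among those 7, and ACTG2 and CNN1 among those 6. In the fit of TC-71 alone, these genes passed the low-count filter only through their siFLI1 libraries, so a large effect there was in part built in. Among all genes that differed, the log2 effect was also higher in TC-71 for 6411 of 10504 against TC-32 and 5570 of 10123 against A673. The widest difference was that of ACTG2 between A673 and TC-71, -6.18 (SE 0.279, adjusted p = 1.28e-17), followed by CALD1 between TC-32 and TC-71, -4.16 (SE 0.0785, adjusted p = 5.17e-30). TPM1 went the other way, with a larger effect in TC-32 than in A673, by 0.91 (SE 0.0586, adjusted p = 1.41e-15), or in TC-71, by 0.67 (SE 0.0709, adjusted p = 5.05e-10). TPM2 rose most in A673, by 1.41 (SE 0.0728, adjusted p = 1.70e-17) more than in TC-71. CNN1 gave no detectable difference between TC-32 and A673, -0.04 (SE 0.295, adjusted p = 0.944), nor LMOD1 between A673 and TC-71, -0.51 (SE 0.802, adjusted p = 0.618); both standard errors leave room for differences of the size seen elsewhere. MYL9 passed in no pair, and its values there rest on groups with 0 to 2 counts.

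Of the 6 genes that passed the low-count filter in both siRNA groups of every line, 4 had their largest log2 fold change in the line where their siNeg level was lowest: ACTA2, CALD1 and TAGLN in TC-71 and TPM2 in A673. A log2 fold change contains the siNeg level, so these share a measurement. For 3 of the 6 (ACTA2, CALD1 and TPM2) the lines were closer together with siFLI1 than with siNeg. The ratio of the highest line's mean to the lowest fell from 30.7 to 3.70 for ACTA2 and from 39.9 to 3.60 for CALD1. It widened from 2.28 to 7.99 for MYLK and from 2.75 to 24.6 for ACTG2, whose TC-71 siNeg libraries had only 5, 8 and 6 counts. TAGLN and TPM1 also stood further apart with siFLI1, at ratios of 5.27 and 9.12 beside 4.83 and 5.66 with siNeg.

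Divided by exon length, which allows levels of different genes to be compared, the make-up of the set shifted with siFLI1. With siNeg, TPM2 led in TC-32 at 79.6 ± 2.46 CPM per kilobase (mean ± SD, n = 3) and in TC-71 at 64.8 ± 3.44, where the next gene, TAGLN, stood at 2.09 ± 0.218. CALD1 led in A673 at 23.0 ± 0.365, just above ACTA2 at 20.4 ± 1.02. With siFLI1, TPM2 stayed first in TC-71 at 139 ± 4.52 CPM per kilobase, but ACTG2 followed at 78.8 ± 3.49 and TAGLN at 47.9 ± 1.52. In TC-32, TPM2 stood at 129.6 ± 7.70 and TPM1 at 79.4 ± 0.627 CPM per kilobase, an order that reversed when the longest transcript was taken as the length (261 and 295). In A673, TAGLN stood at 149 ± 12.9 and ACTA2 at 135 ± 4.68, which also changed places by that length (257 and 268). The summed level per kilobase in A673 was 65.7 ± 1.60 with siNeg and 478 ± 19.6 with siFLI1; TC-32 had 136 ± 2.52 and 387 ± 5.83, and TC-71 70.0 ± 3.27 and 343 ± 10.5. MYL9, LMOD1 and MYLK each added under 10 CPM per kilobase in every group.

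**Figure D3:**
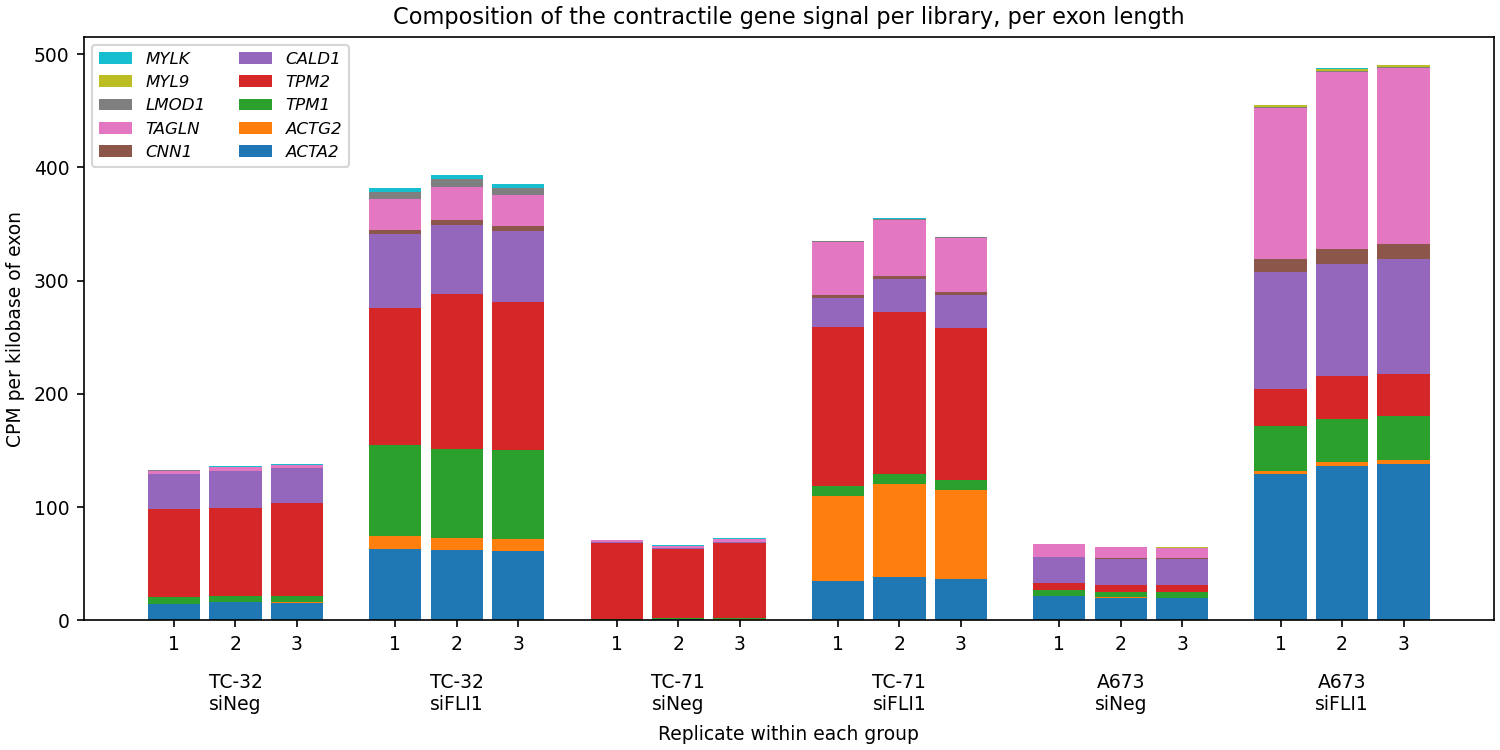
Stacked CPM per kilobase of exon for the 10 genes in each of the 18 libraries; bars are single libraries, grouped by line and siRNA, and the axis starts at 0. With siFLI1 the bars rise in all 3 lines to different mixtures: TPM2 and TPM1 with ACTA2 and CALD1 in TC-32, TPM2 with ACTG2 and TAGLN in TC-71, and TAGLN, ACTA2 and CALD1 in A673.

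Non-muscle and other relatives of these genes moved in both directions. Of 21 such genes (other actins, tropomyosins, calponins, transgelins, light chains, kinases, leiomodins and tropomodulins), 9 rose and 6 fell of 16 tested in TC-32, 15 rose and 1 fell of 17 in TC-71, and 14 rose and 2 fell of 18 in A673. Of all tested genes, 41.3% rose and 40.1% fell in TC-32, 36.8% and 35.0% in TC-71, and 35.6% and 35.4% in A673. Their median log2 fold changes were 0.26, 1.15 and 0.64. ACTB, cytoplasmic beta-actin, changed by 0.76 in TC-71, 0.40 in A673 and -0.12 in TC-32, and the last was no longer past the threshold when libraries were scaled by size alone (-0.08, adjusted p = 0.0581). ACTG1, cytoplasmic gamma-actin, rose by 0.25, 0.81 and 0.55. TPM4 rose by 0.46, 1.57 and 0.59, whereas TPM3 fell in TC-32 (-0.80) and TC-71 (-0.09, adjusted p = 0.0481) and rose in A673 (0.20). CNN2 rose by 1.09, 2.35 and 0.40, and CNN3 by 0.26, 1.61 and 1.06. TAGLN2, the transgelin of many non-muscle cells, fell in TC-32 (-0.73) and rose in TC-71 (1.15) and A673 (0.69). MYL6, the essential light chain partner, rose by 0.68, 1.17 and 0.91.

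Genes of myosin II and its regulators moved in both directions. Of 16 genes, 5 rose and 5 fell of 14 tested in TC-32, 8 rose and 3 fell of 14 in TC-71, and 11 rose and 3 fell of 14 in A673. In TC-32 both shares were near those of all tested genes, 41.3% higher and 40.1% lower; the shares higher among all genes were 36.8% in TC-71 and 35.6% in A673. MYH11, the smooth muscle myosin heavy chain, had 0, 1 and 0 counts with siNeg and 69, 98 and 72 with siFLI1 in TC-32, a ratio of depth-scaled sums of 198 with a 95% counting interval of 35.3 to 7873 (adjusted p = 1.85e-12). In TC-71 it had 4, 1 and 3 and 3, 5 and 3 counts and in A673 0, 6 and 0 and 3, 3 and 1, too few to test. The rises of MYH11 in TC-32 and PPP1R14A in A673 were built into being tested, as their siNeg means lay below the filter's cutoffs. MYH9, a non-muscle heavy chain, rose in all lines by 1.07, 2.15 and 1.505, while its relative MYH10 fell (-0.44, -0.32 and -0.30). DAPK3, another light chain kinase, rose by 1.07, 1.63 and 0.86.

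Most scaffold and cytoskeletal genes of smooth muscle rose. Of 14 genes, 13 rose and 1 fell in TC-32, 10 of 11 tested rose in TC-71 and 12 of 14 rose in A673; the 3 others were not past the threshold. The shares of all tested genes that rose were 41.3%, 36.8% and 35.6%. The medians of the tested genes were 1.53, 1.59 and 1.28. DES, the muscle intermediate filament desmin, rose by 4.24 in TC-32 (0.312 to 5.94 CPM) and 4.81 in A673 (counts 4, 0 and 1 with siNeg and 50, 41 and 54 with siFLI1), and stayed at or under 3 counts in every TC-71 library. Its siNeg means in TC-32 and A673 lay below the filter's cutoffs, so these rises were built into being tested. SMTN, smoothelin, rose by 1.76, 0.91 and 1.21. SYNPO2, an actin-bundling protein, rose by 4.87, 3.10 and 4.67, and VCL, vinculin, by 1.29, 2.37 and 1.44.

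Genes of the SRF circuit differed by line. Of 9 genes, 7 rose and 2 fell in TC-32, 6 rose and 1 fell of 7 tested in TC-71, and 5 rose and 2 fell of 8 in A673, beside 41.3%, 36.8% and 35.6% of all tested genes that rose. SRF itself rose by 0.18, 0.64 and 0.71. MYOCD, the coactivator myocardin, rose from 35, 38 and 41 to 306, 373 and 391 counts in TC-32, 2.96 (SE 0.136, adjusted p = 4.49e-16) on the log2 scale, was at 0 counts in all 6 TC-71 libraries, and had 0, 3 and 1 and 3, 10 and 10 counts in A673. MRTFA rose in all lines by 1.00, 1.91 and 0.38, and MRTFB rose in TC-32 and TC-71 (0.41 and 1.09) and fell in A673 (-0.36). Over these 4 lists, 47 of 60 genes were tested in all 3 lines, of which 24 rose in each, beside 18.9% of all genes so tested, and ELK1 and MYH10 were among those that fell in all 3.

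**Figure D4:**
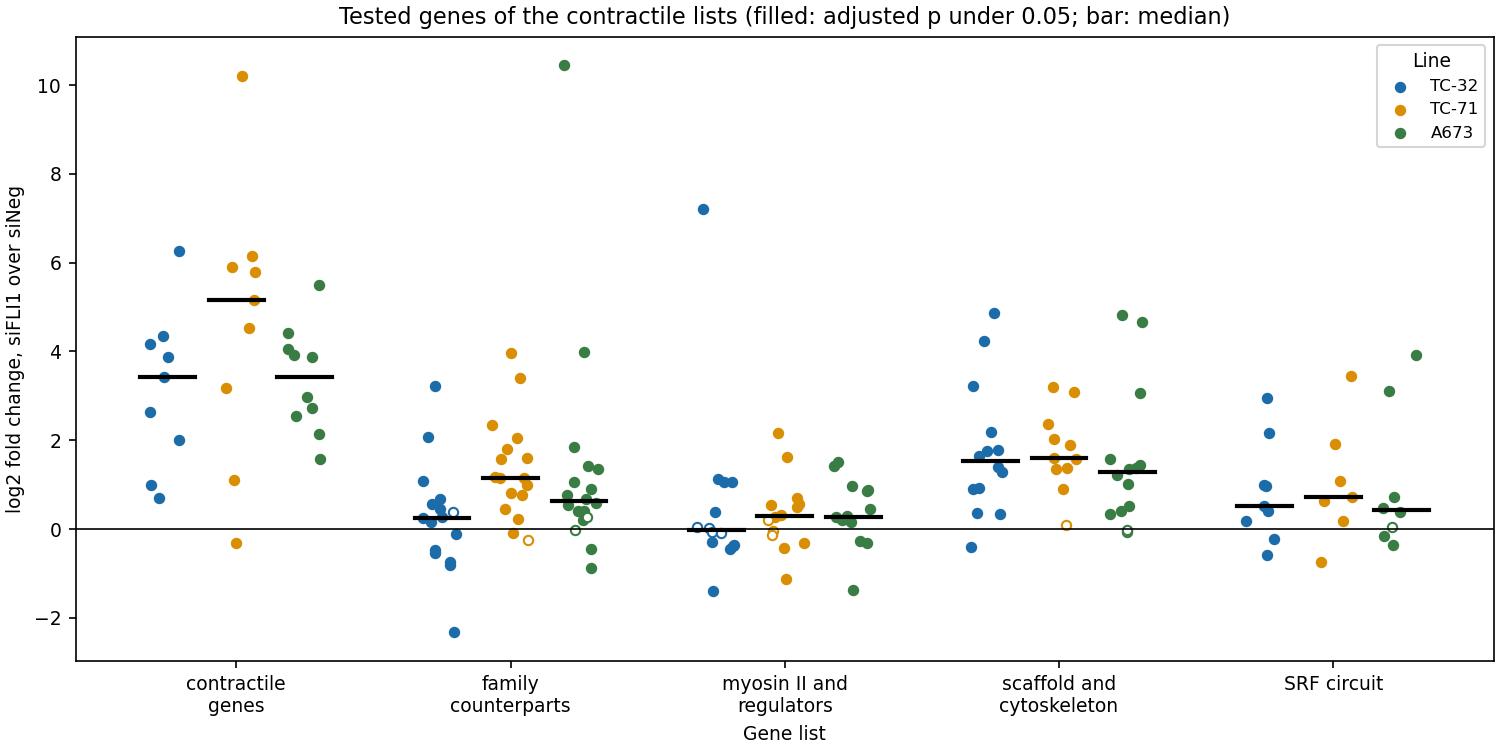
Log2 fold change, siFLI1 over siNeg, of every tested gene in the contractile set and the 4 related lists, by line; filled points have an adjusted p under 0.05, open points do not, and black bars are medians. The medians of the contractile genes are 3.43, 5.15 and 3.43, or 2.63, 3.85 and 2.98 without those that passed the low-count filter only through their siFLI1 libraries.

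Most tested markers of fibroblasts and of smooth muscle rose in every line, while those of other cell types varied. Of 8 fibroblast markers, 8 rose in TC-32, 6 rose and 1 fell of 7 tested in TC-71, and 6 rose and 1 fell in A673, where DCN was not past the threshold; of all tested genes, 41.3%, 36.8% and 35.6% rose. The marker that fell in both lines was THY1 (-0.27 and -0.67), a surface glycoprotein. The summed level of the 8 was higher with siFLI1 in every line. That sum was 769.7 to 806 CPM per library with siNeg and 12452 to 13812 with siFLI1 in TC-32, 253 to 269.5 and 7201 to 7302 in TC-71, and 1259.7 to 1318 and 7593 to 8682 in A673. Collagen genes made up most of those sums. Of 7 mature smooth muscle markers, which include CNN1, LMOD1 and ACTG2, 7 rose in TC-32, 4 of 4 tested in TC-71 and 5 of 5 tested in A673. MYOCD and DES were at or under 3 counts in every TC-71 library and MYH11 in every A673 siFLI1 library. These counts include rises built into being tested. ACTG2 and CNN1 in TC-32, ACTG2, CNN1 and LMOD1 in TC-71 and LMOD1 in A673 passed the low-count filter only through siFLI1 libraries. With siNeg, MYH11 in TC-32 had 0, 1 and 0 counts, and DES 7, 7 and 9 in TC-32 and 4, 0 and 1 in A673. Among fibroblast and pericyte markers, LUM in TC-32 and COL1A2 and CSPG4 in TC-71 were at or under 3 counts in every siNeg library. Of 5 pericyte markers, 2 rose and 2 fell in TC-32, and 4 of 4 tested rose in TC-71 and in A673. The skeletal muscle regulators MYOD1, MYOG and MYF5 were at or under 3 counts in the libraries of every group except MYOG with siFLI1 in TC-32. Endothelial, epithelial and leukocyte markers each summed to at most 6.33 CPM in any library. All tested Ewing sarcoma markers fell, 6 in TC-71 and 7 in each of the other lines. The part of any of these in the contractile changes was not tested.

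By pattern over the 18 libraries, with log2 CPM centred within each line, the genes closest to each member were read off as a description; libraries are shared, and the siRNA contrast drives every such value. ACTA2 was closest to NAV3 (Pearson r = 0.998) and FSTL3 (0.997), ACTG2 to ARID5B (0.995) and MAP1B (0.994), and CALD1 to DHRS3 (0.998) and CABLES1 (0.997). TPM1 was closest to NRP1 (0.999) and FSTL1 (0.998), and TPM2 to SH3BP4 (0.995) and AXL (0.995). For TAGLN they were RHOC and LTBP1 (both 0.998), for LMOD1 CYTH3 and NDST1 (both 0.992), and for CNN1 AP000892.6 (0.989), which overlaps TAGLN, and DNAJB9 (0.988). MYLK stood closest to OAF (0.993) and ADAMTS15 (0.991), which also rose in TC-32 and A673 and fell in TC-71: OAF by 2.43, 1.24 and -0.34 and ADAMTS15 by 5.498, 3.34 and -1.34 as log2 fold changes in that order. Among the members themselves, r ran from 0.248 between CALD1 and MYLK to 0.991 between CNN1 and TAGLN. Without centring, none of the 18 nearest genes was the same.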

How the data were processed

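RNA-seq of 18 libraries (3 lines, 2 siRNAs, 3 replicates) was analysed per gene. The authors deposited expected counts for TC-32 and A673 and whole-number counts for TC-71, with 58381 rows each and none naming no gene; the submitters' processing notes name cutadapt 4.4, STAR 2.7.3, featureCounts of Subread 2.0.3, limma 3.38.3 and the GRCh38 build, without saying which step made which table. The TC-32 and TC-71 columns carry no line name, and their line rests on the table. Expected counts were rounded. Separate fits per line used edgeR 4.0.16 in R 4.3.3 (filterByExpr, TMM, robust quasi-likelihood test, Benjamini-Hochberg adjustment over all genes tested, threshold 0.05), and line differences were contrasts in 1 model of 18 libraries; DESeq2 1.42.0 and limma-voom 3.58.1 were alternatives. On simulated counts with 200 genes changed 2-fold, 91.5% were recovered for A673, 92.0% for TC-32 and 87.5% for TC-71, and 74.5%, 68.0% and 70.0% in the contrasts TC-32 minus A673, TC-32 minus TC-71 and A673 minus TC-71. In the same order, 7.11%, 2.65% and 2.78% of calls were false in the lines, and 8.02%, 4.9% and 3.45% in the contrasts. The simulation gave every gene the same spread beyond counting and changed far fewer genes than were called in the data. Replicates were not duplicates: the chi-square per degree of freedom was at least 2.45 in every pair. Exon lengths, positions and overlaps came from GENCODE 44. Ratios of sums carry exact 95% counting intervals.

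The 10 genes, the lists and the tests were chosen with earlier results of these data known. Genes named were the members, FLI1, the listed genes, and for each member tested in all lines the 2 other genes of highest correlation. The counts per library set the precision, and intervals cover counting error only. Alternatives were other scalings, filters and tools, no rounding, a replicate block, a model of the 12 libraries of both lines compared, and leaving out each library. The values of 1 listed gene are left out, though the counts over its list include it.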

Additional observations from a re-analysis of the deposited data

Results flagged for a closer look

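The siFLI1 effect on a member differed between lines, by the interaction test in edgeR over all 18 libraries, in 25 of 30 comparisons; each value is the log2 effect in the first line minus that in the second. For TC-32 minus A673 the differences were -0.69 for ACTA2, 2.25 for ACTG2, 0.91 for TPM1, -1.82 for TPM2, -1.11 for CALD1, -0.43 for TAGLN, -1.28 for LMOD1 and 1.08 for MYLK. For TC-32 minus TC-71 they were -3.79 for ACTA2, -3.93 for ACTG2, 0.67 for TPM1, -0.40 for TPM2, -4.16 for CALD1, -1.84 for CNN1, -1.10 for TAGLN, -1.79 for LMOD1 and 2.94 for MYLK. For A673 minus TC-71 they were -3.10 for ACTA2, -6.18 for ACTG2, -0.24 for TPM1, 1.41 for TPM2, -3.05 for CALD1, -1.80 for CNN1, -0.67 for TAGLN and 1.86 for MYLK. ACTG2, CALD1 and ACTA2 thus differed most, each with its largest effect in TC-71, and MYLK differed in sign as well as size.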

How the results depend on the processing

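Within each line, every called member kept its direction and its side of the threshold under all alternatives run, and the members called stayed at 9, 9 and 10. Between lines, a few results changed, and the causes were not tested. CNN1 in TC-32 minus A673, not past the threshold, changed sign with library size alone (0.078), with limma-voom (0.052), and without TC-32 siNeg replicate 2 (0.54), TC-32 siFLI1 replicate 1 (0.045) or A673 siNeg replicate 2 (0.0089). Its range over all alternatives run was -0.29 to 0.54. MYL9 in TC-32 minus TC-71 changed sign without TC-32 siFLI1 replicate 2 (-0.72) or TC-71 siNeg replicate 1 (-0.59), and ranged from -0.72 to 5.27 over all alternatives run. MYL9 passed the threshold with limma-voom in TC-32 minus A673 (-3.61) and A673 minus TC-71 (3.88). CNN1 in TC-32 minus TC-71 was no longer past it without TC-32 siNeg replicate 2 (-1.27, edgeR adjusted p = 0.109) or TC-71 siNeg replicate 1 (-1.23, 0.0868), nor was CNN1 in A673 minus TC-71 without the latter (-1.19, 0.0652). LMOD1 in TC-32 minus TC-71 lost its call without TC-71 siNeg replicate 2 (-1.37, 0.0840) or 3 (-1.53, 0.0939), and TPM1 in A673 minus TC-71 in a model of the 12 libraries of both lines (-0.16, 0.0707). Leaving out 1 library gave 8 members differing for TC-32 minus A673, 8 to 9 for TC-32 minus TC-71 and 7 to 8 for A673 minus TC-71. Scaling A673 by library size alone moved the median of all genes from -0.0066 to -0.11 and the higher calls from 6565 of 13096 to 5488 of 13417. Of the 18 genes closest in pattern, 0 were kept without centring. Same-numbered libraries did not deviate together (r from -0.078 to 0.042, and 3 of 9 numbers correlated best with their own), so the numbers pair nothing; a replicate block called 9, 9 and 10 members within the lines and 8, 9 and 8 between them, and 13053, 12048 and 12467 genes in all within TC-32, TC-71 and A673. The comparison of protein sequences that had been planned was not run.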

Other observations

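Genes of striated muscle filaments moved beside the smooth muscle set, in different ways by line. TNNT2, cardiac troponin T, rose from 0.134 to 17.7 CPM in TC-32, a log2 fold change of 6.99 (SE 0.199, adjusted p = 2.57e-20), and from 0.313 to 11.97 CPM in A673, 5.25 (SE 0.110, adjusted p = 3.25e-16), but fell in TC-71 from 0.541 to 0.0890 CPM, -2.72 (SE 0.567, adjusted p = 7.41e-05), all by edgeR. TNNI1, a slow skeletal troponin I, rose from 0.0281 to 3.20 CPM in TC-32 and from 0.0223 to 1.30 CPM in A673, and was too low to test in TC-71. ACTC1, cardiac actin, was at 0 counts in all A673 siNeg libraries and was at least 59.3-fold higher with siFLI1, against a floor of 3 counts per library. ACTN2, the sarcomeric alpha-actinin, and TNNT1, slow skeletal troponin T, fell in all 3 lines. Log2 fold changes for A673, TC-32 and TC-71 were -2.77, -2.28 and -1.32 for ACTN2 and -3.08, -0.62 and -0.56 for TNNT1. Of 16 striated muscle markers, 5 rose and 2 fell of 7 tested in TC-32, 2 rose and 3 fell of 6 in TC-71, and 7 rose and 2 fell of 9 in A673, while 41.3%, 36.8% and 35.6% of all tested genes rose in the same order of lines. Some of these rises, and the fall of TNNT2 in TC-71, were built into being tested. In every siNeg library, TNNC1 and TNNI1 in TC-32 and MYL1, TNNC1, ACTA1 and ACTC1 in A673 were at or under 3 counts. The siNeg means of TNNT2 in TC-32 and TNNI1 in A673 lay below the filter's cutoffs of 0.382 and 0.0846 CPM. In TC-71 the cutoff was 0.375 CPM. Below it lay the siNeg mean of ACTA1, 0.272 CPM, and the siFLI1 mean of TNNT2, 0.0890 CPM. The 16 summed to 64.3 to 68.9 CPM per library with siNeg and 53.0 to 57.9 with siFLI1 in TC-32. The sums were 142 to 152 and 80.3 to 89.7 in TC-71, and 34.3 to 37.3 and 34.3 to 38.1 in A673.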
